A study of Brassica juncea with 21 samples.

Results

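The comparison set the spent floral nectary of Brassica juncea against leaf. It drew on 9 of the 21 libraries of the series, 3 of lateral post-secretory nectaries, 3 of median post-secretory nectaries and 3 of leaf. The deposited table holds 1 normalized whole number for each group and transcript, so 3 of its 7 columns of values entered the comparison and the other 4 served as reference. For each transcript, the mean of log2(value + 1) over both post-secretory nectary types was taken, and log2(value + 1) of leaf was subtracted. Of 14398 transcripts, 14390 were kept because 3 or more of the 7 groups listed them at 1 or above, and 8 were left out. With 1 value per group, the spread between replicates is unknown and nothing could be tested. A transcript was called higher or lower where the groups differed by 2-fold or more, and folds are on the log2(value + 1) scale.

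Brassica juncea is a mustard whose flowers bear a lateral and a median kind of nectary. Post-secretory nectaries were taken 12 h after secretory ones, which came from fully open flowers 4 to 8 h after dawn. Leaf was collected in that same window. The labels also give 4 to 8 h after dawn for nectary dissection in general, so tissue, stage and time of day cannot be told apart in the contrasts with leaf, nor stage and time of day in those with secretory nectaries. Nectary plants were about 40 days old. The age of the plants used for leaf is not given, so a difference in age cannot be told apart from tissue either. All plants grew at 21 °C with 16 h of light and 8 h of darkness. Each nectary sample pooled about 100 hand-dissected nectaries, at most 4 per flower, from its own set of plants. The sources used here give no genotype or variety. Pre-secretory nectaries, named below only as a reference, were taken 24 h before the flowers opened.

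Nectaries of the mustard family load their tissue with starch, turn it into sucrose when the flower opens, export the sucrose through the transporter SWEET9 and cleave it in the cell wall with the invertase CWINV4. In Arabidopsis the transcription factor CRABS CLAW (CRC) is needed for a nectary to form. Floral organs that have done their work are often dismantled: vacuolar proteases and autophagy break down protein, chlorophyll is degraded, and the nitrogen and sugar set free are exported. Gene roles given here are those known from Arabidopsis, and transcripts carry the name of their Brassica rapa match. Near-identical copies in the polyploid Brassica juncea genome were not separated by the table, so each value may sum several gene copies.

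The labels were checked against markers first. CRC was listed at 92 in leaf, 8025 in lateral and 10577 in median post-secretory nectaries, a 99.1-fold difference from leaf. SWEET9 (LOC103857843, the more abundant of 2 transcripts of that locus) was listed at 19 in leaf, 6606 in lateral and 8959 in median nectaries, 385-fold higher. All 4 leaf mesophyll marker transcripts were lower in nectaries, with a summed level of 341763 in leaf, 12077 in lateral and 9047 in median nectaries. The 4 pollen marker transcripts were all higher than leaf, with a summed level of 176 in leaf, 2984 in lateral and 9677 in median nectaries, and none was at 0. Whether pollen on the dissected nectaries contributed was not tested. By Arabidopsis match, no tapetum or carpel and ovule marker was among the transcripts kept, but 1 transcript named by product as the carpel regulator SPATULA (LOC103862298) stood at 3, 71 and 220 in leaf, lateral and median nectaries. In bulk tissue, fewer cells of a type and less RNA per cell cannot be told apart, which applies to all results below.

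Of the 14390 transcripts, 2917 (20.3%) were higher in post-secretory nectaries than in leaf, 2361 (16.4%) were lower and 9112 (63.3%) lay within 2-fold. The shares of 20.3% and 16.4% are the reference for the list counts against leaf below. The median difference over all transcripts was 0.12 on the log2 scale. In both nectary types separately, 2169 (15.1%) were higher and 1772 (12.3%) lower. At 4-fold or more the counts were 1379 (9.58%) and 1062 (7.38%). Column totals were 9644197 in leaf, 7081592 in lateral and 7779055 in median nectaries, and the depth per library is not given. Scaling all columns to the same total moved the median difference from 0.12 to 0.49. The share of calls that were higher then moved from 55.3% to 71.8%, so small differences are relative to that shift. Quantile normalization gave 2552 higher and 2843 lower transcripts, so that 47.3% of calls were higher. Whether more transcripts were higher or lower thus depended on the scaling. The lateral post-secretory column lacks the normalization mark that the other columns carry. That it holds the same kind of value was not tested, and values are therefore given for each nectary type.

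**Figure D1:**
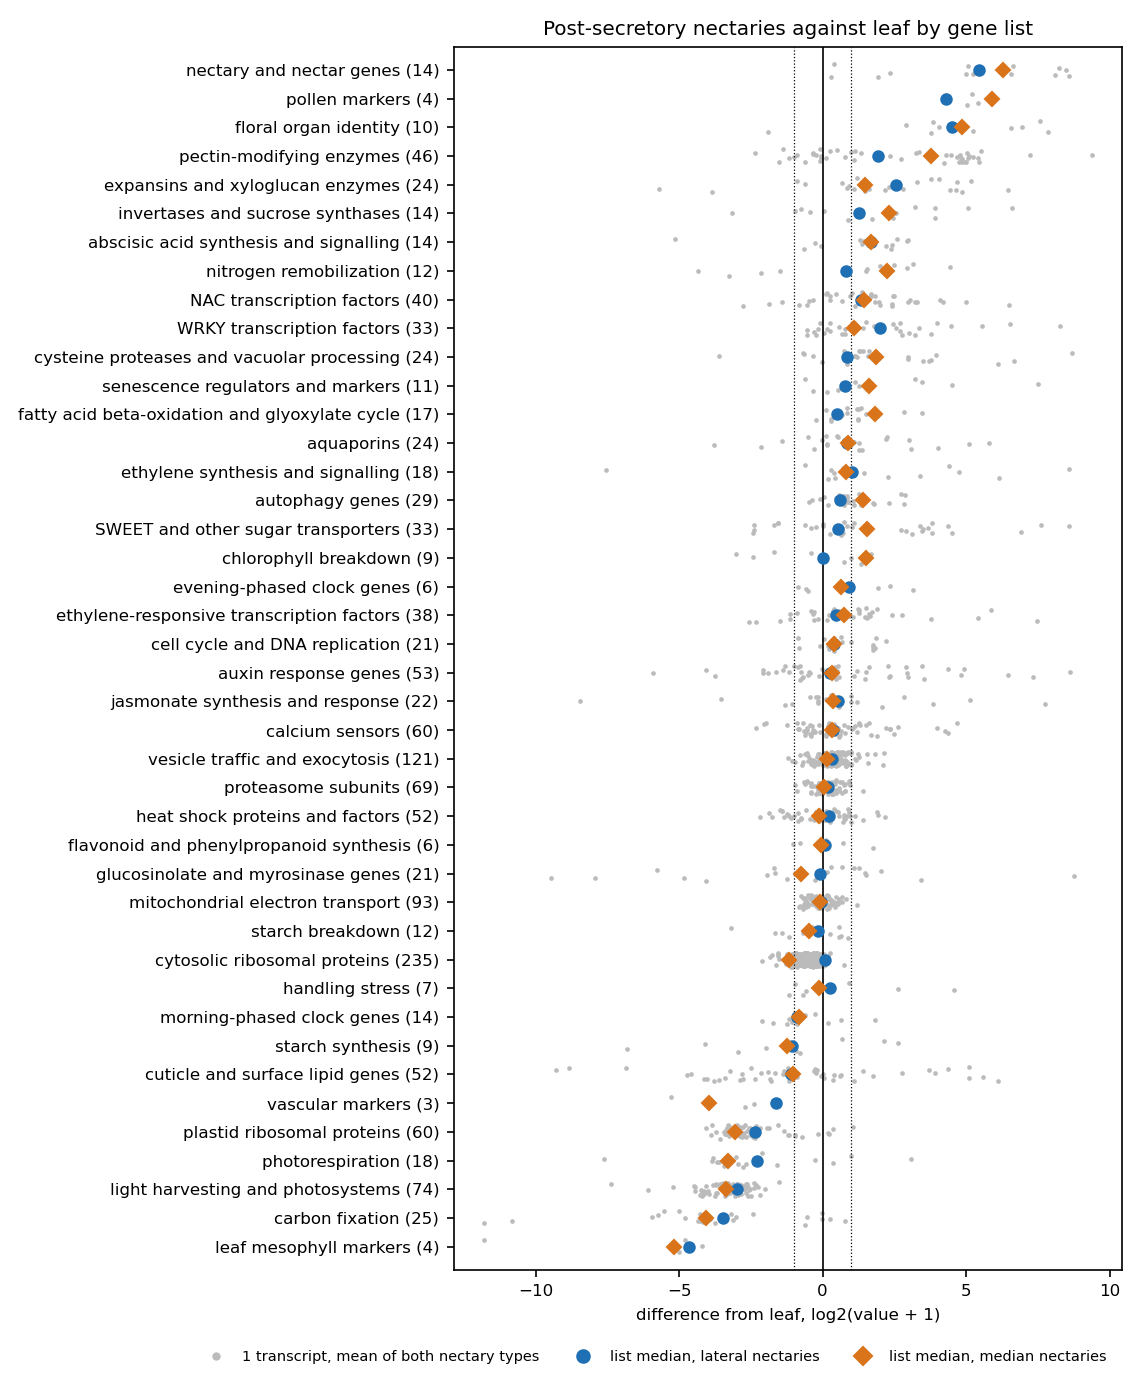
Difference between post-secretory nectaries and leaf in log2(value + 1) for the lists with 3 or more transcripts (number in brackets). Grey points are single transcripts averaged over both nectary types, blue circles and orange diamonds are list medians in lateral and median nectaries, and dotted lines mark 2-fold; photosynthesis lists lie at the bottom, with a median of -3.18 for light harvesting, and nectary genes at the top with 5.35.

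The 10 largest differences upward, among transcripts above 0 in all 3 groups and reaching 100 in the highest, were led by a probable N-acetyltransferase named HLS1. It was listed at 1 in leaf, 2762 in lateral and 1504 in median nectaries, a log2 difference of 9.99. The knotted-like homeobox gene KNAT6, a regulator of meristem and organ boundaries, was listed at 12, 8556 and 9122 (9.41), and CUP-SHAPED COTYLEDON 1, a boundary NAC factor, at 4, 3188 and 3144 (9.31). Both boundary genes were high in each nectary type, with leaf values near the low end of the table. Peroxidase P7 (LOC103846887) was listed at 5 in leaf, 2416 in lateral and 6699 in median nectaries (9.39), and exopolygalacturonase LOC103860974, a pectin-cleaving enzyme, at 2, 2304 and 1713 (9.37). The other 5 were a MYB24-like factor (8.96), a transcript with no described product (LOC103873840, 8.87), extensin-3, a cell wall glycoprotein (8.86), the homeobox gene ATHB-40 (8.80) and an epithiospecifier protein (8.74). For leaf values this close to 0, the size of the fold depends on the pseudocount.

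A further 3 transcripts were listed at 0 in leaf and reached 1000 in a nectary, so that no fold is given. Glutaredoxin-C10-like (LOC103846680), a redox protein, reached 1212 in the lateral and 813 in the median type. LAF1, a MYB factor of light signalling, reached 98 in the lateral and 1275 in the median type, and the WAT1-related transporter LOC103867032 reached 25 and 1461. The last 2 were concentrated in median nectaries. No transcript was at 0 in both nectary types with 1000 or more in leaf.

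The 10 largest differences downward were led by beta carbonic anhydrase 1 (CA1), a chloroplast enzyme, at 45925 in leaf against 6 in lateral and 23 in median nectaries, a log2 difference of -11.79. A salicylate or benzoate methyltransferase (LOC103847297) was listed at 4566 in leaf, 1 in lateral and 3 in median nectaries (-10.66). A Kunitz-type protease inhibitor, a class of defence protein, was listed at 3625, 1 and 2 (-10.53). These leaf transcripts were almost undetected in both nectary types. The remaining 7 were a DC2.15-like proline-rich protein (-10.38), a CORI3-like cystine lyase (-9.57), acid phosphatase 1-like (-9.51), the glucosinolate synthesis enzyme CYP83A1 (-9.46), the ESM1-like lipase (-9.30), a catalase-2-like transcript (-9.28) and a GDSL lipase (LOC103871089, -8.83).

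Genes of nectary identity and nectar production were still far above leaf in the spent organ, and most were below their secretory level. Of 14 transcripts on the list, 12 were higher than leaf and 0 lower, with a median of 5.35. Against the secretory stage, 10 of the 14 were lower and 0 higher (median -2.20). Over all transcripts, 2619 (18.2%) were higher and 2063 (14.3%) lower than at the secretory stage, with a median of -0.01. The post-secretory values enter both contrasts, so the contrasts are not independent.

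SWEET9 went from 147160 in secretory to 6606 in post-secretory lateral nectaries, and from 23865 to 8959 in median ones. CWINV4, the wall invertase, was listed at 147338 and then 730 in lateral and at 77852 and then 7021 in median nectaries, with 67 in leaf, leaving it 33.3-fold above leaf on average. At the post-secretory stage the lateral value of CWINV4 was the lower of the pair, whereas at the secretory stage it was the higher. CRC was listed at 39366 and then 8025 in lateral and at 48454 and then 10577 in median nectaries. The regulators MYB57 (4 in leaf, 1085 in lateral, 2041 in median; 8.22) and MYB21 (LOC103875192; 25, 1502 and 3927; 6.55), which act in jasmonate-dependent flower maturation, stood far above leaf in both types. The second MYB21 copy (LOC103837005) was listed at 5 in leaf, 177 in lateral and 286 in median nectaries (5.24).

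Further transcripts carry these names by product only and are not on the list of 14. The second SWEET9 transcript (LOC103857843) stood at 5, 73 and 77 in leaf, lateral and median nectaries (3.66), and a second CWINV4 transcript (LOC103857608) at 2, 5 and 44 (2.45). A transcript named MYB57 (LOC103840557) stood at 39, 420 and 2175 (4.58), with 14 and 64 in secretory lateral and median nectaries, so it was highest after secretion, unlike the MYB57 transcript above. MYB57-like LOC103858909 stood at 0, 21 and 401 in leaf, lateral and median nectaries, and MYB21-like LOC103830976 at 0, 356 and 90.

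The 3 copies of jasmonate methyltransferase (JMT), which makes methyl jasmonate, were higher by 8.48, 8.09 and 5.47. The most abundant of them at this stage, LOC103829478, was listed at 26 in leaf, 6778 in lateral and 13619 in median nectaries, near its secretory values of 10589 and 14678. PIN6, an auxin carrier, was the exception among nectary types. It was listed at 35 in leaf, 15 in lateral and 2138 in median post-secretory nectaries, lower than leaf by 1.17 in the lateral and far above it in the median type. Both sucrose-phosphate synthase 1F copies, which build sucrose before export, were within 2-fold of leaf, at 574 and 753 in leaf, 581 and 913 in lateral and 978 and 928 in median nectaries. Sucrose-phosphate synthase 2F was higher than leaf, at 133 in leaf, 493 in lateral and 535 in median nectaries (1.94).

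**Figure D2:**
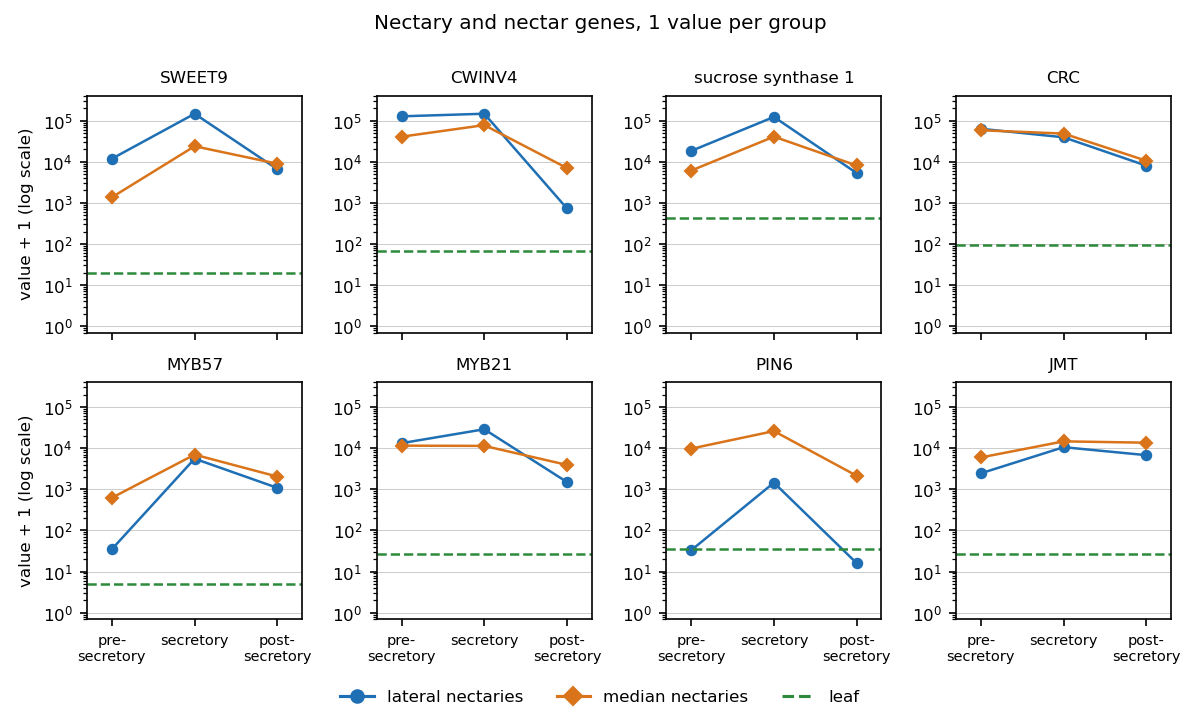
Values plus 1 (log scale, 1 value per group) of 8 nectary and nectar genes at 3 stages in lateral (blue circles) and median (orange diamonds) nectaries, with leaf as a dashed green line. At the post-secretory stage all points lie above the leaf line except lateral PIN6, at 15 against 35, and SWEET9 is at 6606 and 8959.

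Other sugar-handling genes formed a mixed group. Of 14 invertase and sucrose synthase transcripts, 8 were higher and 1 lower (median 2.09). Sucrose synthase 1 (LOC103845641), which splits sucrose inside the cell, was listed at 430 in leaf, 5307 in lateral and 8116 in median nectaries, 15.2-fold higher, and at 123226 and 40835 in secretory ones. The cell wall invertase LOC103846681 was listed at 0 in leaf, 114 in lateral and 81 in median nectaries and did not pass 2 in any earlier nectary group. Vacuolar invertase 4 (LOC103843145) was the 1 lower member, at 1556 in leaf, 159 in lateral and 188 in median nectaries (-3.16).

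Of 33 sugar transporter transcripts, 16 (48.5%) were higher and 6 (18.2%) lower (median 0.86), against 20.3% and 16.4% of all transcripts. SWEET15, a senescence-associated sucrose transporter, had 2 copies above leaf: LOC103850848 was listed at 82 in leaf, 471 in lateral and 7387 in median nectaries, and LOC103846596 at 62, 263 and 1786. At the secretory stage the same 2 copies were listed at 5 and 3 in lateral and 264 and 111 in median nectaries, so both SWEET15 copies were higher after secretion than during it, unlike SWEET9. A vacuolar sugar transporter, ERD6-like 12, was listed at 6 in leaf, 148 in lateral and 4803 in median nectaries. The phloem-loading carrier SUC2 (LOC103840834) was lower on average, at 1297 in leaf, 731 in lateral and 82 in median nectaries, though within 2-fold in the lateral type (-0.83). It counts among 3 vascular marker transcripts, all lower than leaf on average. Their summed level was 5409 in leaf, 1647 in lateral and 248 in median nectaries. They cover 2 of the 9 vascular loci looked for, SUC2 and the phloem protein PP2-A1, so the list does not speak for other vascular tissue.

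Starch genes were mostly at or below the leaf level. Of 9 starch synthesis transcripts, 2 (22.2%) were higher and 4 (44.4%) lower (median -0.94), against 20.3% and 16.4% of all transcripts. Granule-bound starch synthase, which makes amylose, was listed at 8903 in leaf, 709 in lateral and 378 in median nectaries (-4.10), and the ADP-glucose pyrophosphorylase subunit APL1 at 778, 7 and 5 (-6.81). Starch branching enzyme SBE2.1 went the other way, at 232, 1363 and 1492 (2.61). Of 12 starch breakdown transcripts, 0 were higher and 4 lower (median -0.22, which scaling to the same total turned to 0.15). Beta-amylase 1 was within 2-fold on average, at 4802 in leaf, 7217 in lateral and 10749 in median nectaries, and beta-amylase 3 was lower, at 2860, 824 and 115 (-3.21).

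Floral organ identity genes were mostly above leaf. Of 10 transcripts, 9 were higher and 1 lower (median 4.65). SHATTERPROOF2 (SHP2) was listed at 33 in leaf, 7183 in lateral and 5753 in median nectaries, 189-fold higher, and SEPALLATA1 at 58, 5992 and 5249. The 2 AGAMOUS matches on the list, the stamen and carpel identity gene, were listed at 42 and 13 in leaf, 623 and 129 in lateral and 604 and 285 in median nectaries. FRUITFULL, a MADS-box gene also active in leaves and fruit, was the 1 lower member, at 653, 225 and 133 (-1.91). SEPALLATA3 was listed at 0 in leaf, 179 in lateral and 299 in median nectaries.

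Photosynthesis genes were far below leaf. All 74 light-harvesting and photosystem transcripts were lower in both nectary types, with a median of -3.18 and a range from -7.37 to -1.51. Chlorophyll a-b binding protein 1 (LOC103865334), a light-harvesting antenna, was listed at 521766 in leaf, 16426 in lateral and 12165 in median nectaries, 36.9-fold lower. The antenna transcript LOC103835251 differed most, at 60737, 397 and 336 (-7.37). Of 25 carbon fixation transcripts, 19 were lower and 0 higher (median -3.74). A Rubisco small subunit (LOC103863779) was listed at 243822 in leaf, 18257 in lateral and 14441 in median nectaries, and Rubisco activase (LOC103865740) at 142554, 5016 and 3848.

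Of 18 photorespiration transcripts, 14 were lower and 1 higher (median -2.87), and of 60 plastid ribosomal protein transcripts, 52 were lower and 1 higher (median -2.72). The higher one in photorespiration, glycine cleavage H protein 2, was listed at 18 in leaf, 229 in lateral and 109 in median nectaries (3.07). Nitrogen assimilation in the plastid followed the same direction. Ferredoxin-dependent glutamate synthase (GLU1) was listed at 10598 in leaf, 825 in lateral and 324 in median nectaries (-4.35), and the plastid glutamine synthetase copies at 6993 and 8624 in leaf, 1993 and 1133 in lateral and 1239 and 722 in median nectaries. Mitochondrial electron transport, by contrast, stayed near leaf: of 93 transcripts 1 was higher and 0 lower (median -0.13, turned to 0.25 by scaling to the same total). Proteasome subunits did likewise, with 1 of 69 higher and 0 lower (median 0.14, turned to -0.02 by quantile normalization).

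Of 21 glucosinolate and myrosinase transcripts, 7 (33.3%) were higher and 9 (42.9%) lower (median 0.00). The epithiospecifier protein LOC103871085, which steers glucosinolate breakdown to nitriles, was listed at 42 in leaf, 19431 in lateral and 17348 in median nectaries, 427-fold higher. Nitrile-specifier protein 5 (LOC103874933) was listed at 871 in leaf, 1221 in lateral and 10575 in median nectaries. CYP83A1, which acts in glucosinolate synthesis, stood at 1720, 1 and 2 in the same order. Of 52 cuticle and surface lipid transcripts, 11 (21.2%) were higher and 28 (53.8%) lower (median -1.12). Over all transcripts, 20.3% were higher and 16.4% lower.

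Of 24 cysteine protease and vacuolar processing transcripts, 17 were higher and 1 lower (median 1.35). In lateral nectaries alone 10 were higher, and in median ones 18. Cysteine proteinase RD21a (LOC103827997), a vacuolar protease, was listed at 515 in leaf, 19672 in lateral and 65789 in median nectaries, 69.7-fold higher. Vacuolar processing enzyme gamma, which activates vacuolar proteases, was listed at 2507, 21809 and 47735 (3.69), and at 2593 and 3861 in secretory lateral and median nectaries. Both were above leaf and above the secretory value in each type, and higher in median than in lateral nectaries.

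The KDEL-tailed endopeptidases, which are stored in the endoplasmic reticulum and released in dying plant cells, were low in leaf. CEP1 was listed at 34 in leaf, 5865 in lateral and 34470 in median nectaries, 406-fold higher, and CEP2 at 20, 352 and 12952 (6.67). Before and during secretion CEP2 did not pass 49 in any nectary group. CEP1 was already at 1260 in lateral and 3501 in median nectaries during secretion. The 1 lower member was a cathepsin B-like transcript (LOC103828445), at 216, 20 and 14 (-3.61). The thiol protease aleurain lay within 2-fold of leaf on average, at 7765 in leaf, 3343 in lateral and 6939 in median nectaries, with 323 and 729 at the secretory stage.

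Of 29 autophagy transcripts, 13 were higher and 0 lower (median 0.86). In lateral nectaries alone 6 of the 29 (20.7%) were higher, close to the 19.7% of all transcripts in that type, whereas 18 were higher in median ones, where the share over all transcripts was 22.0%. Autophagy moves cell contents to the vacuole, and ATG8 is the ubiquitin-like protein that coats its membranes. The ATG8a copy LOC103839823 was listed at 442 in leaf, 1648 in lateral and 2874 in median nectaries, 4.92-fold higher, and LOC103861273 at 48, 147 and 849, 7.24-fold higher. ATG8f (LOC103847692) was near leaf in both types, at 2328, 2101 and 2305. Of 17 transcripts of fatty acid beta-oxidation, 10 were higher and 0 lower (median 1.23). In lateral nectaries alone 3 were higher, near the share of 19.7% over all transcripts in that type, against 14 in median ones. Peroxisomal acyl-CoA oxidase 1, which also serves jasmonate synthesis, was listed at 1370, 6465 and 14757 (2.83), and at 39323 and 27036 in secretory nectaries. The beta-oxidation median against leaf was already 1.01 before and 1.06 during secretion. Against the secretory stage 4 of the 17 were higher and 4 lower. Their summed level went from 77606 to 17294 in lateral and from 66573 to 43242 in median nectaries.

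Senescence regulators and markers were higher than leaf in 7 of 11 transcripts and lower in 0 (median 1.26). The 2 SWEET15 copies above are on this list too. The match to SAG12, the classic senescence protease marker, was listed at 8 in leaf, 240 in lateral and 10991 in median nectaries (7.50). The match to ORE1, a NAC factor that promotes leaf ageing, was listed at 116, 423 and 2773 (3.21). Both were highest in median nectaries, and in lateral nectaries they stood between leaf and the median type.

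The match to NAP, another ageing NAC factor, differed in kind. It was listed at 637 in leaf, 331 in lateral and 1522 in median nectaries, within 2-fold of leaf on average (0.16), but at 1 and 16 in secretory lateral and median nectaries. The match to VNI2, a NAC factor that delays ageing, was likewise within 2-fold of leaf, at 3144, 1471 and 4239, with 165 and 98 at the secretory stage. Against the secretory stage, 8 of the 11 senescence transcripts were higher and 0 lower, with a median of 4.28. Relative to leaf, NAP differed by -0.94 in lateral and 1.26 in median nectaries, and VNI2 by -1.10 and 0.43. Only NAP in median and VNI2 in lateral nectaries passed 2-fold.

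Chlorophyll breakdown gave 3 higher (33.3%) and 3 lower (33.3%) transcripts of 9 (median 0.76), against 20.3% and 16.4% of all transcripts. The 2 STAY-GREEN 1 copies, which start chlorophyll degradation, were listed at 403 and 232 in leaf, 465 and 288 in lateral and 3165 and 1221 in median nectaries. NYC1 (LOC103833353), which converts chlorophyll b, was listed at 1122, 1559 and 8409 (1.69), and red chlorophyll catabolite reductase, a later step, at 468, 164 and 128 (-1.68). In lateral nectaries 0 of the 9 were higher than leaf and in median nectaries 5 were.

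Of 12 nitrogen remobilization transcripts, 7 were higher and 4 lower (median 1.53), the 4 lower ones being the plastid enzymes above and asparagine synthetase 3. Glutamate dehydrogenase 2 was listed at 58 in leaf, 809 in lateral and 1984 in median nectaries, 21.5-fold higher. Cytosolic glutamine synthetase GLN1;3, which makes glutamine for transport, was listed at 439, 2318 and 6620 (3.15), against 284 and 249 at the secretory stage. The nitrate transporter NPF2.13, known for moving nitrate out of old leaves, was higher in both of its copies, at 83 and 726 in leaf, 193 and 1082 in lateral and 579 and 3925 in median nectaries.

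**Figure D3:**
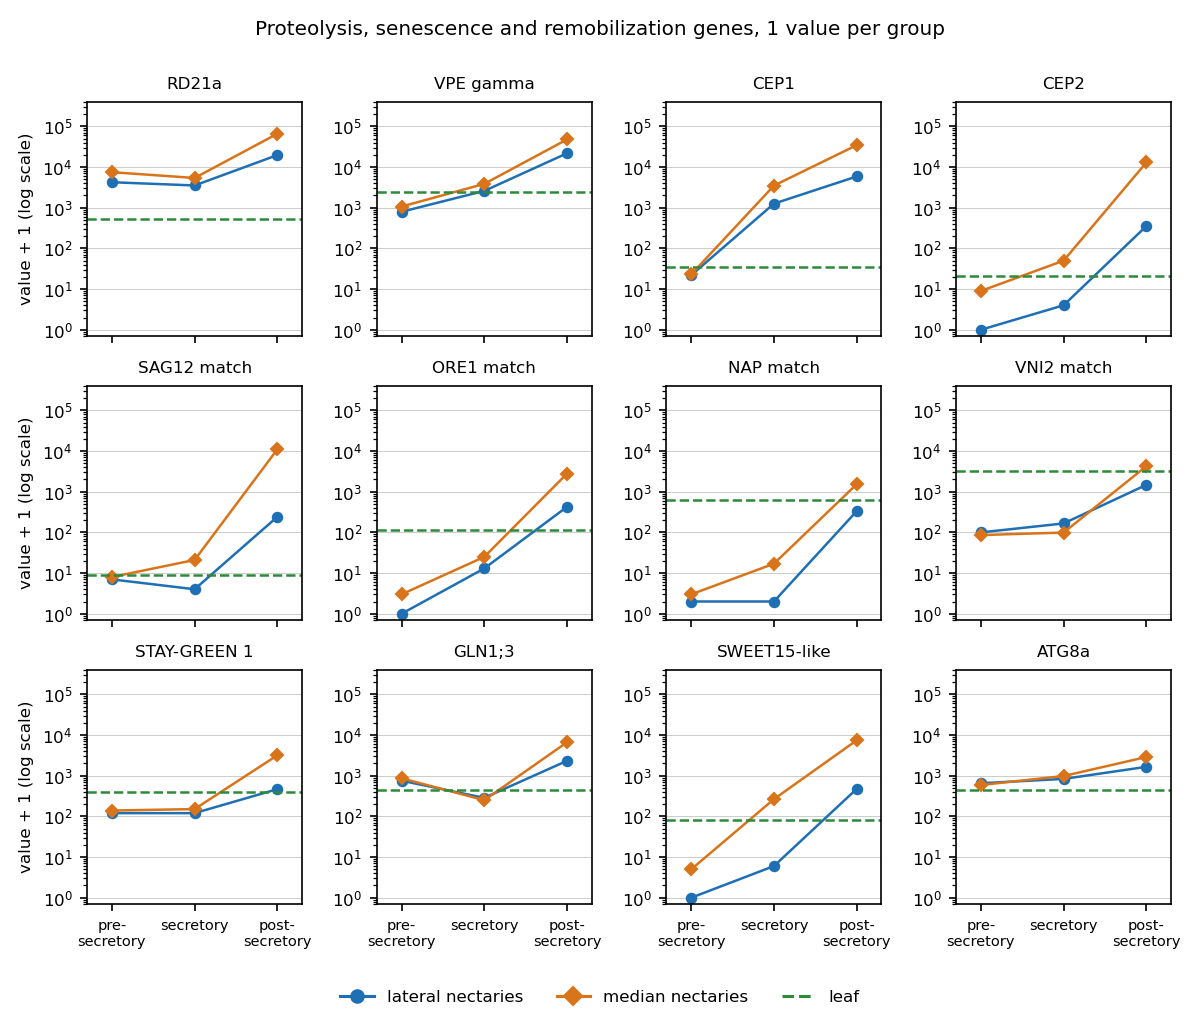
Values plus 1 (log scale, 1 value per group) of 12 genes of proteolysis, senescence, chlorophyll breakdown, nitrogen and sugar export and autophagy at 3 stages in lateral (blue circles) and median (orange diamonds) nectaries, with leaf as a dashed green line. The post-secretory point is the highest of each nectary line, for example 65789 for RD21a in median nectaries, and NAP and VNI2 end on either side of the leaf line.

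Transcription factor families linked to stress and ageing were mostly above leaf. Of 40 NAC transcripts, 26 were higher and 3 lower (median 1.45), and of 33 WRKY transcripts, 19 were higher and 0 lower (median 1.42). WRKY28 was listed at 140 in leaf, 12652 in lateral and 13609 in median nectaries, 93.1-fold higher, and at 1000 and 1459 in secretory ones. WRKY14 was listed at 4, 2568 and 921 (8.27). NAC019, a stress-responsive factor, was listed at 341, 6135 and 5487, 17.0-fold higher. WRKY28 and NAC019 had similar values in both nectary types. NAC21/22 was listed at 0 in leaf, 26 in lateral and 293 in median nectaries. The lowest NAC transcript relative to leaf was NAC domain-containing protein 69-like (LOC103853343), at 1608, 592 and 93 (-2.77).

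Of 14 abscisic acid transcripts, 10 were higher and 1 lower (median 1.60). The receptor PYL4 was listed at 34 in leaf, 345 in lateral and 212 in median nectaries (2.96). NCED3, the rate-limiting enzyme of abscisic acid synthesis, was listed at 162, 1091 and 520 (2.21). The abscisic acid response gene RD29B was the 1 lower member, at 2249, 149 and 26 (-5.14), in the opposite direction to NCED3.

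Of 18 ethylene transcripts, 8 were higher and 1 lower (median 0.86). The ethylene-forming enzyme ACO1 was listed at 2 in leaf, 3419 in lateral and 385 in median nectaries (8.58), and the receptor ERS1 at 48, 1468 and 715. The synthase ACS6 was lower, at 3266, 37 and 7 (-7.55). Within ethylene synthesis, members thus stood on both sides of leaf. Of 38 ethylene-responsive factors, 17 were higher and 5 lower (median 0.64), and ERF071, a factor known from low-oxygen responses, was listed at 0 in leaf, 184 in lateral and 165 in median nectaries.

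Jasmonate genes gave 6 higher (27.3%) and 4 lower (18.2%) transcripts of 22, with a median of 0.36. These shares lay near the 20.3% and 16.4% over all transcripts. The repressor JAZ10 (LOC103846592) was listed at 2 in leaf, 489 in lateral and 835 in median nectaries (7.74). Lipoxygenase 2, the entry step of jasmonate synthesis in leaves, was lower in both copies: LOC103830390 was listed at 4052, 4 and 26 (-8.45) and LOC103830993 at 995, 38 and 185 (-3.55). The pre-secretory values of the second copy were 38280 and 42550, so its post-secretory level was low relative to both leaf and the young nectary.

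Of 53 auxin transcripts, 19 (35.8%) were higher and 11 (20.8%) lower (median 0.38), against 20.3% and 16.4% of all transcripts. GH3.6, which conjugates auxin to amino acids, was listed at 0 in leaf, 890 in lateral and 175 in median nectaries. The lowest list member, GH3.12-like, was listed at 190, 4 and 1 (-5.92), but its product name is that of a 4-substituted benzoates-glutamate ligase. Next lowest was the auxin-responsive protein IAA2-like (LOC103834036), at 274, 32 and 7 (-4.08).

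Of 46 pectin-modifying transcripts, 27 were higher, 14 within 2-fold and 5 lower (median 2.54). Between types, 28 were 2-fold or more higher in median than in lateral nectaries against 2 the other way. Over all transcripts these shares between types were 9.41% and 12.6%. The list holds both copies of VANGUARD1 (VGD1), a pollen tube pectinesterase: LOC103866408 was listed at 35 in leaf, 792 in lateral and 2998 in median nectaries, and LOC103858231 at 81, 880 and 2998. The pollen arabinogalactan protein AGP6 was listed at 20, 370 and 1273, so pollen markers too were higher in median nectaries. The part of pollen in the pectin result was not tested. In a count made after the values were seen, 15 of the 46 lay within the range of the pollen markers on both differences. That range was -0.75 to 0.79 from the secretory stage and -1.92 to -1.35 between types (lateral minus median). The VGD1 copies are among the markers that set the range, so they fell inside by construction. Without the markers 13 transcripts remained, and all 15 were higher than leaf. Pectinesterase LOC103866866 lay outside the range, at 26 in leaf, 1765 in lateral and 9142 in median nectaries (7.22), with 2 and 25 in secretory ones.

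Of 24 expansin and xyloglucan enzyme transcripts, which loosen and re-link the wall, 17 were higher and 2 lower (median 2.23). The xyloglucan enzyme LOC103834679 was listed at 311 in leaf, 19799 in lateral and 38316 in median nectaries, 88.3-fold higher. Of 24 aquaporin transcripts, 12 were higher and 3 lower (median 0.97). The boron-permeable channel NIP5-1 was listed at 13, 1004 and 601 (5.80), and the water channel PIP2-2 at 4320, 301 and 330 (-3.77). The most abundant aquaporin, PIP1-2-like, was listed at 16085 in leaf, 39482 in lateral and 28988 in median nectaries (1.07).

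Clock genes bear on the time of day at which tissues were taken. Of 14 transcripts of morning-phased clock genes, 1 was higher and 6 were lower than leaf (median -0.93), and 8 were lower than in secretory nectaries and 0 higher (median -1.07). CCA1 was listed at 5553 in leaf, 1969 in lateral and 1397 in median post-secretory nectaries, and LHY (LOC103844616) at 16493, 7459 and 6621. The second LHY copy was listed at 1662, 941 and 671. All 3 of these core morning transcripts lay below leaf in both types by 1.06 to 1.74 on average. PRR9 went the other way, at 113, 317 and 502 (1.81), as did a second PRR9 transcript outside the list (LOC103866306), at 44, 93 and 174 (1.51).

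Of 6 evening-phased transcripts, 3 were higher and 0 lower (median 0.72). GIGANTEA was listed at 98 in leaf, 449 in lateral and 318 in median nectaries (1.94). The PRR5 copy LOC103874318 was listed at 40, 401 and 327 (3.15) and LOC103854859 at 227, 163 and 139 (-0.59), the latter within 2-fold of leaf. A further transcript of LOC103874318, matched by product name only, stood at 1341, 410 and 476 (-1.60), so PRR5 transcripts differed from leaf in both directions. Tissue and time of day cannot be told apart here.

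**Figure D4:**
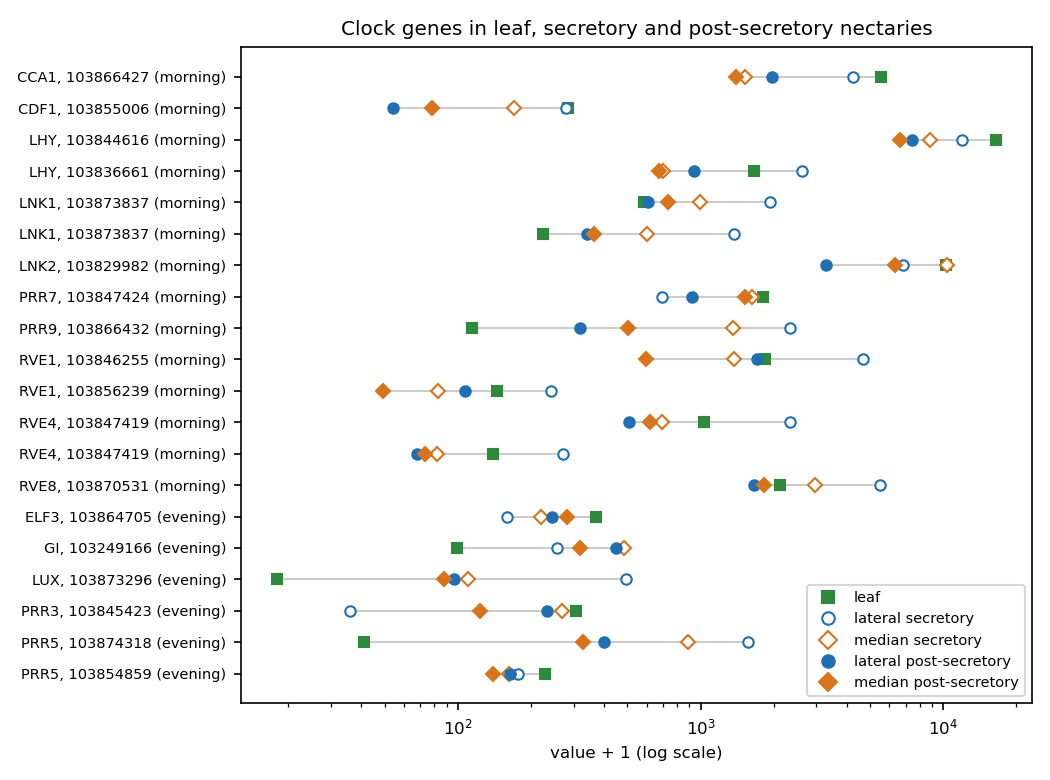
Values plus 1 (log scale, 1 value per group) of 20 transcripts of morning-phased and evening-phased clock genes in leaf (green squares), secretory (open) and post-secretory (filled) lateral (circles) and median (diamonds) nectaries. LHY and CCA1 are highest in leaf or secretory lateral nectaries and lower after secretion, for example 5553 in leaf and 1969 and 1397 in post-secretory nectaries for CCA1.

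A list chosen as markers of handling stress was also compared with leaf. Whether these transcripts responded to handling here was not tested. Of 7 transcripts, 2 (28.6%) were higher and 1 (14.3%) lower than leaf (median -0.59), against 20.3% and 16.4% of all transcripts. In 6 the value was lower than in secretory nectaries. Alcohol dehydrogenase 1, a low-oxygen gene, was listed at 164 in leaf, 3815 in lateral and 4086 in median post-secretory nectaries, and at 112027 and 40719 in secretory ones. Of 52 heat shock transcripts, 5 (9.62%) were higher and 12 (23.1%) lower than leaf. Their median of 0.06 lay at -0.07 under quantile normalization.

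The lateral and median spent nectaries differed from each other. Of all transcripts, 1820 (12.6%) were 2-fold or more higher in lateral and 1354 (9.41%) 2-fold or more higher in median nectaries. Against leaf, lateral nectaries alone gave 2832 (19.7%) higher and 2115 (14.7%) lower transcripts, and median nectaries alone 3168 (22.0%) and 3010 (20.9%). Both contrasts use the same leaf value.

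Cytosolic ribosomal proteins, the building blocks of the translation machinery, separated the types. Of 235 transcripts, 205 were 2-fold or more higher in lateral than in median nectaries and 0 the other way, and this count lay between 205 and 223 under the 3 other scalings. Their median difference from leaf was 0.09 in lateral and -1.19 in median nectaries, and 162 were lower than leaf in the median type against 4 in the lateral type. The summed level was 208592 in leaf, 225582 in lateral and 94071 in median post-secretory nectaries, and 47425 and 32704 in secretory ones. The transcript of ribosomal protein L5-1 (LOC103828552), for example, was listed at 4390 in leaf, 4205 in lateral and 1624 in median nectaries. In both types the post-secretory sum was above the secretory one, and 225 transcripts were higher than at that stage.

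The senescence, protease, autophagy and beta-oxidation lists leaned towards the median type, whereas starch breakdown did not. Of its 12 transcripts, 4 were 2-fold or more higher in lateral nectaries and 0 in median ones. Of 69 proteasome subunits, 0 differed 2-fold or more between the types. Among senescence transcripts 8 of 11 were 2-fold or more higher in median nectaries and 0 in lateral ones, and among cysteine proteases 13 of 24 against 1. Among autophagy transcripts the counts were 14 of 29 against 0, and for beta-oxidation 15 of 17 against 0. Of 21 cell cycle and DNA replication transcripts, 8 were 2-fold or more higher in median and 3 in lateral nectaries. Over all transcripts, 9.41% were 2-fold or more higher in median and 12.6% in lateral nectaries. The replicative helicase part MCM5 was among the cell cycle transcripts higher in median nectaries. It was listed at 19 in leaf, 24 in lateral and 336 in median nectaries, with 25 and 616 at the secretory stage. The pollen marker sum was likewise higher in median nectaries, at 9677 against 2984, and its part in these differences was not tested.

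Few transcripts stood on opposite sides of leaf, a call that by definition needs the types to differ by 4-fold or more. Of all transcripts, 42 (0.292%) were higher than leaf in lateral and lower in median nectaries, and 47 (0.327%) the reverse. Among those with the largest difference between types, germin-like protein T3 (LOC103830683) was listed at 577 in leaf, 139 in lateral and 41360 in median nectaries. A GDSL lipase (LOC103834690) was listed at 64, 27 and 7101. The leucine-rich repeat receptor-like kinase LOC103861192 went the other way, at 112, 322 and 10, as did the plasmodesmal callose-binding protein 4, at 26, 343 and 10. Terpene synthase 02 ((E)-beta-ocimene synthase), which makes a floral scent compound, was higher than leaf in both types but more so in the median one, at 19, 150 and 3354.

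Of 21 cell cycle and DNA replication transcripts 6 (28.6%) were higher than leaf and 0 lower (median 0.43). Of 60 calcium sensors 20 (33.3%) were higher and 4 (6.67%) lower (median 0.34). Of 121 vesicle traffic transcripts 10 (8.26%) were higher and 2 (1.65%) lower (median 0.27). The shares over all transcripts were 20.3% higher and 16.4% lower. The trichome gene TRY was listed at 88 in leaf, 735 in lateral and 440 in median nectaries, and the guard cell channel KAT1 at 76, 49 and 27.

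A set of 106 transcripts (0.737%) reached 100 in a spent nectary and had both post-secretory values at 4-fold or more above leaf and every earlier nectary group. The reverse held for 4 transcripts (0.0278%). Both definitions were made after the data were seen. WRKY14 and exopolygalacturonase LOC103860974, given above, were among the 106, and both lipoxygenase 2 copies among the 4.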

How the data were processed

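RNA of leaf and of lateral and median nectaries was sequenced by the authors with 50 bp paired-end reads. The deposited values are a score: per the file headers, 1 normalized whole number per group (UQN, read as upper-quartile normalized), not counts per library. The lateral post-secretory column lacks that mark. The aligner, the build, the depth per library and how 3 libraries became 1 value are not stated in any source used, so precision is unknown. With 1 value per group, differences of log2(value + 1) were computed and no test was run, with Python 3.11.15, pandas 2.3.3 and numpy 2.4.6. Code was tested on simulated data.

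The comparison, its 48 gene lists (22 by Arabidopsis locus, 26 by product name) and the rule for named genes were chosen with earlier results of these data known, and product-name lists were trimmed of false matches after list medians had been seen. The rule named the 10 largest differences each way with at least 100 in the highest group, the extremes and most abundant member of each list, core nectar and clock genes by Arabidopsis match (further copies by product name are given with them), opposite calls and transcripts at 0 in leaf, 139 in all. Other members given as examples were chosen after their values were seen. Genes can be on several lists. Alternatives were the pseudocount (0.1, 10), the filter, 3 scalings, each nectary type alone, 4-fold and 1 copy per locus.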

Additional observations from a re-analysis of the deposited data

Results flagged for a closer look

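A group of 8 transcripts stood on opposite sides of leaf in the 2 post-secretory nectary types, and with 1 value per group the difference between types was not tested. In 4 of them the median type was the higher, by lateral minus median log2 differences of -8.21 for LOC103830683 (germin-like protein), -7.99 for LOC103834690 (GDSL lipase), -8.95 for LOC103832898 (putative branched-chain amino acid aminotransferase) and -8.57 for LOC103834697 (cysteine-rich transmembrane protein). In the other 4 the lateral type was the higher, by 4.97 for LOC103829185 (plasmodesmata callose-binding protein 4), 4.74 for LOC103836840 (WAT1-related protein), 4.88 for LOC103861192 (leucine-rich repeat kinase) and 4.65 for LOC103850529 (uncharacterized). These were the 4 largest differences each way, among transcripts with at least 100 in one group, of 89 with such opposite calls.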

How the results depend on the processing

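No paired analysis was possible because the table holds 1 value per group, and for the same reason leaving out single libraries and a fit with a replicate block were not run. Of 510 list medians and counts under the alternatives, 477 were classed as unchanged, medians by direction and side of the threshold. Counts in that class could still shift. For values outside it the cause was not tested beyond the construction of each alternative. A pseudocount of 10 gave guard cell markers -0.88 and opposite calls of 17 (lateral higher) and 30 (median higher). Quantile normalization gave 75 of the latter and an all-transcript median of -0.04. Scaling to the same total gave 4266 higher and 1676 lower transcripts, counts classed as unchanged, and 4771 higher and 1058 lower than at the secretory stage. It moved chlorophyll breakdown to 1.14, ethylene to 1.24, evening clock genes to 1.10, guard cell markers to -0.67, sugar transporters to 1.23, autophagy to 1.23, ethylene-responsive factors to 1.01, cuticle genes to -0.74 and aquaporins to 1.34. The same 75th percentile gave starch synthesis -1.03 and morning clock genes -1.02. Lateral nectaries alone gave starch synthesis -1.07, senescence 0.77, nitrogen remobilization 0.81, ethylene 1.03, guard cell markers -0.62, cysteine proteases 0.86 and beta-oxidation 0.49. Median nectaries alone gave starch synthesis -1.26, chlorophyll breakdown 1.51, sugar transporters 1.56, cytosolic ribosomal proteins -1.19 and autophagy 1.39. The highest copy per locus gave starch synthesis -1.47 and evening clock genes 1.94, and a 4-fold threshold gave 1379 and 1062 transcripts. Single transcripts turned direction in lateral nectaries alone for LOC103830683 (-2.05), LOC103834690 (-1.22), PIN6 (LOC103832163, -1.17), LOC103832898 (-1.51), LOC103834697 (-2.00), LOC103836840 (2.21) and LOC103861192 (1.52), and in median nectaries alone for LOC103829185 (-1.30) and LOC103850529 (-1.51). Depth per library is unknown, so how far counting error limits low values cannot be said.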

Other observations

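Among the 106 transcripts that peaked in spent nectaries, product names describe 22 (20.8%) as transcription factors, against 3.01% of all 14390 transcripts. Another 8 (7.55%) are described as proteases or ribonucleases, 8 as cell wall proteins or peroxidases and 8 as transporters or channels, against 1.83%, 0.896% and 3.08% of all transcripts. The 106 were defined after the data were seen and had to reach a minimum value in a spent nectary. The 14390 were held to no such minimum, so the shares are not like for like. Whether any of these kinds was enriched was not tested. Ribonuclease 3, an enzyme that degrades RNA, was listed at 6 in leaf, 194 in lateral and 4159 in median post-secretory nectaries, and at no more than 21 in earlier nectaries. Ribonuclease 1, induced in Arabidopsis by ageing and phosphate shortage, was listed at 64, 343 and 2410.

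Phosphate carriers were on the same list. Phosphate transporter 1-4-like LOC103867070 was listed at 9 in leaf, 531 in lateral and 720 in median nectaries and its neighbour in name LOC103867071 at 12, 367 and 564, while earlier nectary groups did not pass 37 for either. Amino acid uptake carriers on the list were amino acid permease 5, at 451, 2200 and 2058, and GABA transporter 1, at 203, 850 and 817. The 3 EXORDIUM-like 2 transcripts, a family tied to growth under carbon shortage in Arabidopsis, were listed at 128, 153 and 1174 in leaf, 16105, 7113 and 13293 in lateral and 12772, 7015 and 20706 in median nectaries. The 4 transcripts with both post-secretory values 4-fold or more below the other 5 groups were both copies of lipoxygenase 2, an acanthoscurrin-1 transcript (LOC103843221; 5 in lateral and 4 in median nectaries, 189 in leaf) and a triacylglycerol lipase-like transcript (LOC103833111; 3 and 5, with 55 in leaf).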
